A study of Mus musculus with 4 samples.

Results

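The baseline transcriptome of the untreated DBA/2J mouse hippocampus was described from the 2 control arrays of a study of the antidepressant fluoxetine. A gene was included when a probeset with a single gene symbol in the platform annotation reached an intensity of 100, the submitters' minimum for a detected probeset, on both control arrays. Each gene was represented by its probeset with the highest mean log2 intensity. Of 18193 genes with such a probeset, 8833 (48.6%) met the rule. A further 9121 genes were under 100 on both arrays at every probeset, and 239 had no probeset at 100 on both arrays but reached it on 1 array. The control mice were males of the inbred strain DBA/2J, aged 8 to 10 weeks per the sample labels, which drank untreated water (0 mg/kg per day of fluoxetine) for 21 days. They were kept with 12 hours of light per day. Both hippocampi were taken from each of 12 control mice, and their RNA formed 2 pools of 6 mice. Every pool had 1 array of its own, the Affymetrix Mouse Genome 430 2.0, which carries short oligonucleotide probes grouped into probesets. The other 2 arrays of the series, from mice given 18 mg/kg per day, were not used here. The pools hide the spread between mice, and with 1 array per pool the differences between pools carry no test.

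The hippocampus is a cortical structure needed for forming memories of events and places. Its main path runs from the granule cells of the dentate gyrus to the pyramidal cells of the CA3 and CA1 fields, with GABA-releasing interneurons inside each layer. Glutamate is its main transmitter. Astrocytes clear released glutamate and supply neurons with fuel, oligodendrocytes wrap axons in myelin, microglia are the resident macrophages, and the neurons depend on oxidative metabolism of glucose. In RNA from whole tissue, fewer cells of a type and less RNA per cell cannot be told apart.

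Intensities of the 8833 genes spanned from just over 100 to 56289, the geometric mean of both pools for Rps29. The median gene lay at 571, the lower quartile at 268 and the upper quartile at 1365. A mean between 100 and 200 was found for 1396 genes (15.8%), and 212 genes (2.40%) were at 10000 or more. The 100 highest genes carried 17.5% of the summed intensity of included genes in control pool 1 and 17.6% in control pool 2. The signal was therefore spread over many genes: it took 699 genes in pool 1 and 688 in pool 2 to reach 50% of the sum.

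**Figure D1:**
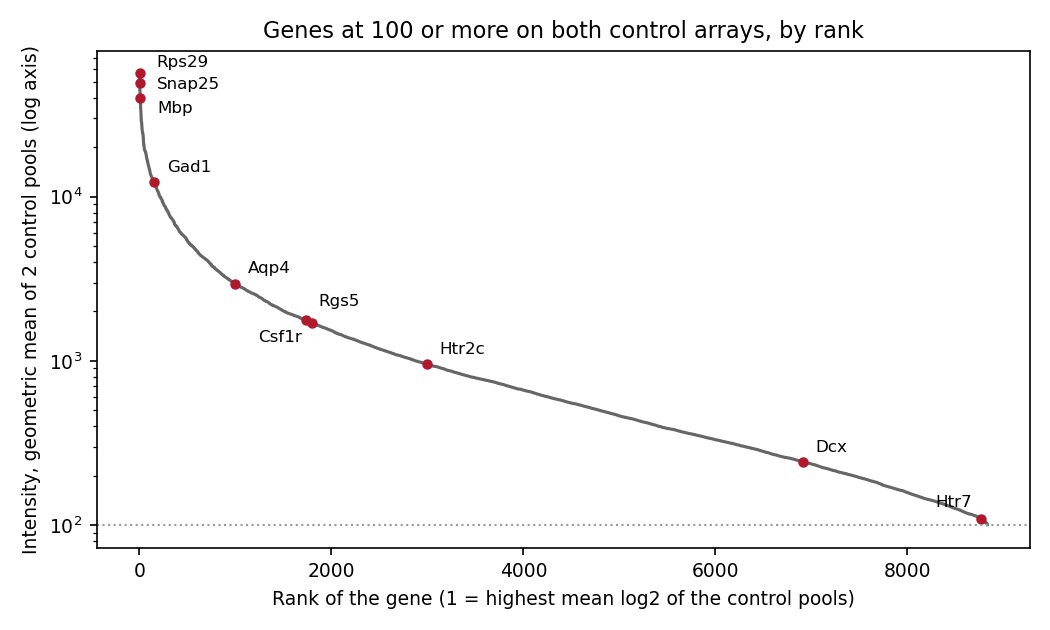
Intensity (log axis, geometric mean of the 2 control pools) of the 8833 included genes against their rank, with 10 genes labelled in red and a dotted line at 100. The curve falls steeply over the highest genes, from Rps29 through Snap25 and Mbp to Gad1, and then declines evenly towards the minimum, where Htr7 lies.

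Both pools gave nearly the same order. They shared 26 of their 30 highest genes, 95 of their 100 highest and 483 of their 500 highest. The median fold between pools was 1.06, with 95% of genes within 1.25-fold and 99% within 1.43-fold. The standard deviation of the log2 difference was 0.161 over the included genes. Neighbouring ranks in the middle of the list differ by far less than that, so only wide gaps in rank exceed the spread between pools.

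A rank is a rank of probeset signal, not of transcript number, because probes differ in how well they bind. Probesets of the same gene can also differ, and the cause of the differences below was not tested. Of the included genes, 5991 had more than 1 probeset, and 3647 had at least 2 probesets at 100 or more on both arrays. In the latter, counting only probesets at 100 or more, the highest was a median of 2.76-fold brighter than the lowest. Of them, 10% differed by 11.2-fold or more. With probesets under 100 counted too, the median over the 5991 genes was 24.1-fold. Another probeset of the same gene stayed under 100 on both arrays for 4029 included genes. The widest gaps among the 500 highest genes were in Cpe, with probesets at 3.49 and 38812, Tpt1 (2.78 and 26168), Hsp90aa1 (3.15 and 24860), Norad (3.47 and 26749) and Mdh1 (4.92 and 33161). A value under 100 therefore does not show that a gene is silent, and it is given below as under 100.

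The highest signals came from translation, synaptic release, membrane, myelin and astrocyte genes. Rps29, a protein of the small ribosomal subunit, read 55841 in pool 1 and 56740 in pool 2. Nsmf, a synapse-to-nucleus messenger, read 52691 and 49382, and Snap25, a membrane-fusion protein of synaptic release, read 48443 and 49686. These 3 genes held the first 3 ranks in both pools, although Nsmf and Snap25 exchanged places. The lowest of the 4 Nsmf probesets had a mean of 13.2, under the minimum. The Nsmf rank therefore rests on the chosen probeset, an _x_at type that can match several transcripts. Gpm6a, a neuronal membrane glycoprotein, read 45245 and 45094. The chaperone gene Hspa8 read 43412 and 44840, and Clu, a secreted chaperone made by astrocytes, read 41220 and 43863. Malat1, a long nuclear RNA, was the least even of the 10 highest, at 43970 and 36240, which moved it from rank 5 to rank 10. Mbp, the myelin basic protein gene, read 39492 and 40244. Cpe, an enzyme that trims peptide hormones, read 37754 and 39899, and Fth1, the heavy chain of the iron store ferritin, read 38541 and 37018.

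The next 20 ranks added genes of energy supply and the cytoskeleton. Atp1b1, a subunit of the sodium pump, read 35743 and 35437. ND5, a subunit of respiratory complex I encoded in mitochondrial DNA, read 32479 and 35184. Mdh1, the cytosolic malate dehydrogenase, read 31438 and 34980. The translation genes Eef1a1, Rps28, Rpl13a and Tpt1 stood here, with means from 26168 for Tpt1 to 33511 for Eef1a1. The cytoskeletal genes Dynll1, Tmsb4x, Tuba1a and Stmn3 lay between 24936 for Stmn3 and 30662 for Dynll1. Cst3, Sparcl1 and Slc1a2, genes with strong expression in astrocytes, had means of 28338, 27977 and 25477. Ywhab and Ywhaz, adaptors that bind phosphorylated proteins, had means of 35099 and 25362. Serinc1, Cox6a1, Norad and Slc25a4 completed the 30. Of the 100 highest genes, 21 belonged to a written cell type, synaptic or metabolic list, 38 to a gene family, 58 to either and 42 to neither.

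The named ranking leaves out bright probesets. Of the 100 brightest probesets on the arrays that are not Affymetrix controls, 39 had no or several symbols, and the brightest of these had a mean of 50816.

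The start regions of the included genes shared a feature that the intensity rule did not use. A CpG-rich region was defined as at least 50% G and C with at least 0.6 of the CG dinucleotides expected from its base composition, over the 300 bases from 250 before to 50 after the start. The 100 bases before the start of 7 genes are shown to make the contrast visible, with CG dinucleotides and the TATAAA motif in capitals. They were chosen after their values were seen, from genes with 1 start region. The sequences come from RefSeq on build GRCm38.p6 and read 5′ to 3′ on the gene's own strand. Atp1b1 (chr1:164458356-164458455, minus strand), Mdh1 (chr11:21571935-21572034, minus) and the neuronal gene Gad1 (chr2:70562029-70562128, plus) had CpG-rich start regions. The astrocyte genes Slc1a2 (chr2:102706338-102706437, plus) and Gfap (chr11:102897201-102897300, minus), also included, did not. The liver gene Alb (chr5:90460770-90460869, plus) and the neutrophil gene S100a8 (chr3:90668971-90669070, plus) were both under 100 and lacked CpG richness.
Atp1b1: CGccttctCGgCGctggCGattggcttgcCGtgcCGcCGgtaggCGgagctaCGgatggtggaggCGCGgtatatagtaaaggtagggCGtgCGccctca
Mdh1: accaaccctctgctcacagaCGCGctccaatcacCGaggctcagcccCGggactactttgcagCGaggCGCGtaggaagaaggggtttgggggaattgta
Gad1: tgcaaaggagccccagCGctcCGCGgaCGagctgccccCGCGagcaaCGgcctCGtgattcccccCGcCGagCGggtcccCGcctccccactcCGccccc
Slc1a2: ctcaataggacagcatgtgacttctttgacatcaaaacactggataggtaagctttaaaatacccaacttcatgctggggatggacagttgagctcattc
Gfap: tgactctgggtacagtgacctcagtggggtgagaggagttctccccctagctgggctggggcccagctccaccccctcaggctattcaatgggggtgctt
Alb: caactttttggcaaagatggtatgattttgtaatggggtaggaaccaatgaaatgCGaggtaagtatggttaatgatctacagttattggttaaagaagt
S100a8: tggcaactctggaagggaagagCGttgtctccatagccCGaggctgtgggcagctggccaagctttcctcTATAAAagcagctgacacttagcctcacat

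Between these examples, the 300-base region held 31 CG dinucleotides in Atp1b1, 21 in Mdh1 and 21 in Gad1, against 1 in Slc1a2, 3 in Gfap, 3 in Alb and 4 in S100a8. TATAAA stood close upstream of the start in S100a8 and in none of the other 6. Of 18193 genes, 11720 had exactly 1 start region in the RefSeq table and were counted. A CpG-rich region was found in 4363 of 5594 included genes (78.0%) and in 1941 of 5978 genes under 100 on both arrays (32.5%). The share over all counted genes was 54.6%, and it was 33.5% over all regions that RefSeq's table lists. Across 10 equal slices of the ranking it ran only from 72.9% in the lowest slice to 81.5% in the fourth from the top. Under 100, in bins chosen after the values were seen, it fell gradually with intensity, to 62.9% of genes with a mean from 50 to 100, 58.4% from 20 to 50, 47.6% from 10 to 20 and 21.9% under 10, so the minimum of 100 marks no sharp step.

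**Figure D2:**
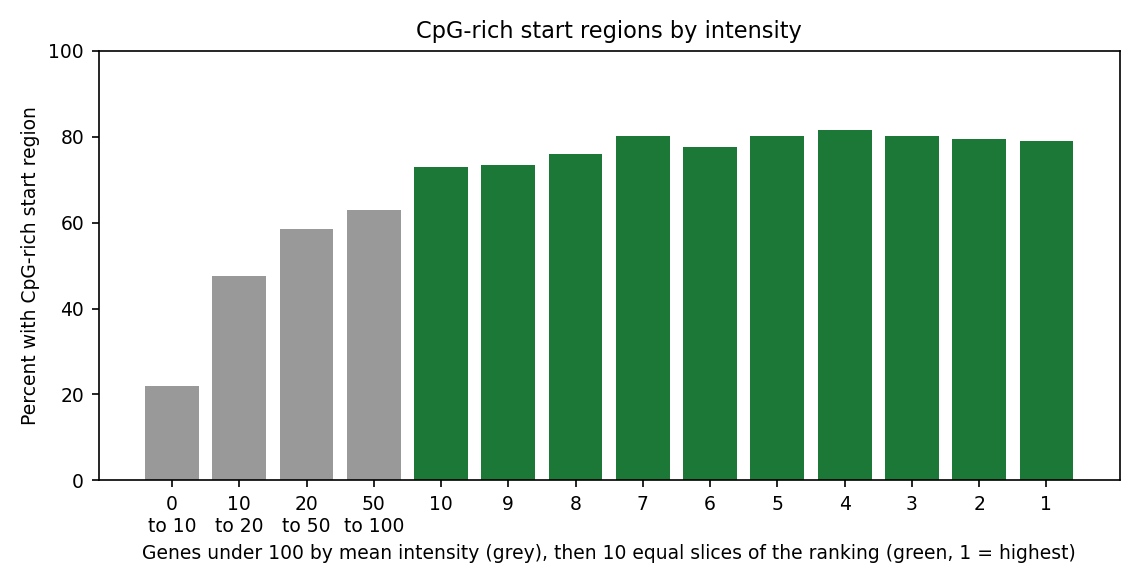
Percent of genes with a CpG-rich start region (bars from 0) among genes under 100 on both arrays, by mean intensity (grey), and in each of 10 equal slices of the included genes (green, 1 the highest). The grey bars rise from 21.9% to 62.9% and the green bars lie between 72.9% and 81.5%.

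Shorter motifs, searched on both strands of the same 300 bases unless stated, separated less evenly. GGGCGG, whose letters can contribute to CpG content, was in 69.5% of included genes and 40.1% of those under 100. Its share was 54.5% over all counted genes and 35.7% over all regions. CCAAT was in 38.9% and 38.7%, against 38.7% of all counted genes and 37.4% of all regions. TGACGTCA, which also contains CG, was in 3.77% and 1.74%, and in 6.03% of the highest 10% of included genes. Its share was 2.71% over all counted genes and 1.79% over all regions. TATAAA, searched on the gene's own strand only, from 40 to 19 bases before the start, was in 0.822% of included genes and 4.63% of those under 100. Its share was 2.78% over all counted genes and 1.94% over all regions. Included genes also spanned more genome, with a median of 27.9 kb against 14.9 kb. The share of genes included varied little by chromosome, from 41.3% on chromosome 7 to 53.5% on chromosome 18, apart from chromosome Y with 2 of 9 genes.

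The CpG-rich share differed among lists of included genes. Against 78.0% of all included genes, it was 3 of 18 astrocyte genes and 1 of 8 microglial genes. Neuronal lists ranged from 7 of 14 interneuron and 5 of 9 excitatory neuron genes through 7 of 10 pan-neuronal and 12 of 17 synaptic vesicle genes, near the share of all included genes, to 7 of 7 newborn-neuron genes. Against 32.5% of genes under 100, it was 0 of 25 peripheral organ genes and 0 of 13 blood genes, but 9 of 12 growth factor receptor genes.

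Genes found across neurons were all included. All 24 named genes of the pan-neuronal list reached 100 on both arrays, against 48.6% of all genes, and their median intensity was 6804 against 571. Besides Snap25, the calcium sensor gene Syt1 read 14197 and 14182, and the dendritic microtubule gene Map2 read 10998 and 11088. Rbfox3, which encodes the nuclear marker NeuN, read 7272 and 7247, and Tubb3, the neuronal tubulin, read 1063 and 1138. The neurofilament genes Nefl (6888 and 6164), Nefm (4101 and 3996) and Nefh (930 and 922) were all included. The values of both pools were close for each of these genes.

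The machinery of transmitter release was likewise complete. All 25 synaptic vesicle and release genes were included, 16 of them in the highest 10% of the ranking, with a median of 3989. Nsf, the ATPase that separates used fusion complexes, read 11161 and 11284, and Cplx1, a clamp on those complexes, read 7244 and 7472. The vesicle genes Syn1 (3804 and 4194), Syp (3794 and 3907) and Vamp2 (3447 and 3788) lay in a narrow band. Pclo and Bsn, which scaffold the release site, read 5730 and 5500, and 3246 and 2879. Among postsynaptic density genes 19 of 21 were included, with a median of 1047. Dlgap1 read 4154 and 4539, Homer1 read 2547 and 2463, and Dlg4, which encodes PSD-95, read 326 and 273. Shank1 (4.81 and 4.77) and Cacng8 (5.22 and 4.61) were under 100 although both encode known components of forebrain excitatory synapses.

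The hippocampal excitatory lineage was present by its defining markers. All 17 named excitatory neuron genes were included, with a median of 3342. The calcineurin subunit gene Ppp3ca read 21710 and 19972, and Hpca, the calcium sensor hippocalcin, read 13584 and 10519. Neurod6, a transcription factor of cortical excitatory neurons, read 7092 and 6321. Camk2a, the kinase of synaptic plasticity, read 3466 and 2692, and the vesicular glutamate transporter Slc17a7 read 614 and 564.

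Markers of each hippocampal field were detected under the hippocampus label. All 4 defining dentate granule cell markers named were included: Calb1 at 5157 and 4876, Dsp at 880 and 602, Prox1 at 380 and 227 and C1ql2 at 153 and 112. In all, 13 of 16 dentate genes were included, with C1ql3 the highest at 9331 and 9607 and Tdo2 (46.4 and 25.2), Plk5 and Maml2 under 100. All 12 CA1 genes were included, and the defining markers Pou3f1 (935 and 814), Mpped1 (675 and 861), Wfs1 (516 and 688) and Fibcd1 (547 and 382) lay between 382 and 935. Of the CA2 and CA3 list 11 of 17 were included. Pcp4, abundant in CA2, read 4290 and 4490, Rgs14 read 849 and 741 and Grik4 read 299 and 228, while Amigo2 (47.1 and 30.8) and Iyd were under 100.

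Interneuron genes covered several classes. Of 28 genes 22 were included, with all 6 defining markers among them. Gad1, the main GABA-synthesising enzyme, read 11867 and 12597, and its partner Gad2 read 972 and 1119. The peptide genes read 8696 and 8163 for Cck, 2738 and 2878 for Sst, 1338 and 1594 for Vip and 1236 and 1436 for Npy. Pvalb, the calcium buffer of fast-spiking cells, read 780 and 766, and the vesicular GABA transporter Slc32a1 read 526 in both pools. Lhx6, a transcription factor of interneurons from the medial ganglionic eminence, was near the minimum at 141 in both pools. Erbb4 (11.2 and 10.9), Htr3a (62.3 and 56.8), Dlx5, Dlx6, Cort and Chodl were under 100.

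Adult neurogenesis in the dentate gyrus gave a divided picture. Of 22 newborn neuron and progenitor genes 14 were included. Stmn1 read 11639 and 14382, Sox4 1268 and 1374, Sox11 259 and 259, and Dcx, a microtubule protein of migrating neurons, 231 and 255. The proliferation and progenitor genes Mki67 (11.7 and 12.3), Top2a (8.20 and 7.73), Nes (6.83 and 7.15) and Eomes (6.42 and 6.49) were all under 100. Pcna (2273 and 2063), a replication clamp also used in DNA repair, and Sox2 (1775 and 1665), also an astrocyte gene, were included.

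Astrocyte genes formed the brightest glial list. Of 29 genes 28 were included, with a median of 2892, and 13 stood in the highest 10%. Slc1a2, the main glutamate transporter, read 25338 and 25616, and its relative Slc1a3 read 4604 and 4650. Apoe, a lipid carrier, read 16322 and 17076, and the gap junction gene Gja1 read 14091 and 14833. Glul, which converts glutamate to glutamine, read 9593 and 8976, and the water channel gene Aqp4 read 3050 and 2852. The familiar marker Gfap was at 461 and 385 and Aldh1l1 at 440 and 447. Slc6a11, a GABA transporter, missed the rule on 1 array, at 94.2 and 140.

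Myelin genes were nearly complete. Of 24 oligodendrocyte genes 23 were included, with a median of 1683. After Mbp came Qdpr (10638 and 10608), Cnp (9774 and 9385), Car2 (6200 and 5925) and Mobp (5273 and 4530). Mog read 633 and 625, Mag 311 and 327, and the lineage regulator Sox10 134 and 125. Gjc3 alone was under 100, at 13.8 and 10.1. Of 12 precursor genes 9 were included, among them the growth factor receptor gene Pdgfra (983 and 1003) and Gpr17 (237 and 212), whereas the proteoglycan gene Cspg4 read 80.2 and 66.9.

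Microglial genes were dimmer, and 14 of 28 were included, close to the 48.6% of all genes. Ctss, a lysosomal protease, read 3184 and 2999, and Csf1r, the receptor that keeps microglia alive, read 1668 and 1734. The complement genes C1qb (522 and 560) and C1qa (485 and 497) and the homeostatic receptors Cx3cr1 (509 and 450) and P2ry12 (426 and 381) followed. C1qc, which encodes the third chain of the same complement protein, read 41.5 and 38.4. Tmem119 (45.7 and 45.6), Trem2, Itgam and the transcription factor gene Spi1 (5.07 and 5.21) were also under 100.

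Vascular genes were included about as often as all genes, 54.0% against 48.6%. Of 25 endothelial genes 15 were included, led by Bsg (4267 and 4606), which neurons and glia also express, and the glucose transporter gene Slc2a1 (3489 and 3165). The transporter genes of the blood-brain barrier Slco1c1 (1065 and 1014), Slco1a4 (618 and 663), Abcg2 (457 and 456), Mfsd2a (300 and 287) and Abcb1a (237 and 236) were included. Of 6 defining endothelial markers only Cldn5, a tight junction gene, was included, at 291 and 247. Tek (112 and 90.2) lay at the minimum, Flt1 just under it, and Pecam1 (6.58 and 6.57), Kdr (4.54 and 6.45) and Cdh5 (5.38 and 5.36) far under it. Of 17 pericyte and smooth muscle genes 8 were included, with Rgs5 at 1768 and 1761, Acta2 at 963 and 897 and Pdgfrb at 574 and 585. Of 21 meningeal and fibroblast genes 11 were included, with Ptgds, a prostaglandin synthase, at 10285 and 15944 and the proteoglycan gene Dcn at 1724 and 2570, although Col1a1 (9.31 and 13.2) and Col3a1 (59.0 and 56.4) were under 100.

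Genes of the ventricular lining, blood and distant organs were mostly under 100. In the choroid plexus list 3 of 21 were included, of which Ttr, the thyroxine carrier, differed greatly between pools as described below. In the ependymal list Rarres2 alone, of 14 genes, was included, at 148 and 140. All 17 named blood genes, of 23 written, were under 100: the haemoglobin gene Hba-a1 read 4.93 and 4.94, the erythroid gene Alas2 3.53 and 3.52 and the T cell gene Cd3e 5.23 in both pools. The other written blood genes had no single-symbol probeset and were not assessed, so absence of blood RNA is not shown. Of 34 genes of peripheral organs 31 were under 100, including the liver gene Alb (4.12 and 4.12) and the pancreatic gene Ins2 (4.04 and 4.03). The 3 included were Krt10 (348 and 369), Lor (290 and 274) and the muscle actin gene Acta1 (201 and 228), whose sequence closely resembles other actin genes.

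Lists of neighbouring brain regions differed among themselves. Of the neocortical list 10 of 11 genes were included, among them Tle4 (1111 and 1352), Fezf2 (1031 and 1102), Cux2 (414 and 577) and Rorb (230 and 259). This list contains genes that the hippocampal formation also expresses. The striatal list had 4 of 10, with Drd2 (4.80 and 4.79) and Rgs9 (34.2 and 34.4) under 100, and the thalamic list had 4 of 14. None of 12 hypothalamic genes was included, and Oxt, Avp, Hcrt and Pmch lay between 4.70 for Avp in pool 1 and 5.97 for Pmch in pool 1. The cerebellar list had 2 of 10, Calb1 and Zic1, with Pcp2 (6.85 and 6.88) and Gabra6 (5.13 and 5.14) under 100. Among genes of monoamine and cholinergic projection neurons, whose cell bodies lie outside the hippocampus, 3 of 14 were included. The degrading enzymes Maob (376 and 362) and Maoa (335 and 333) were among them, with Dbh at 143 in both pools. Slc6a4, the serotonin transporter that fluoxetine blocks, read 4.13 and 4.12, and Tph2, the serotonin-synthesising enzyme of the raphe, read 8.31 and 8.12.

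**Figure D3:**
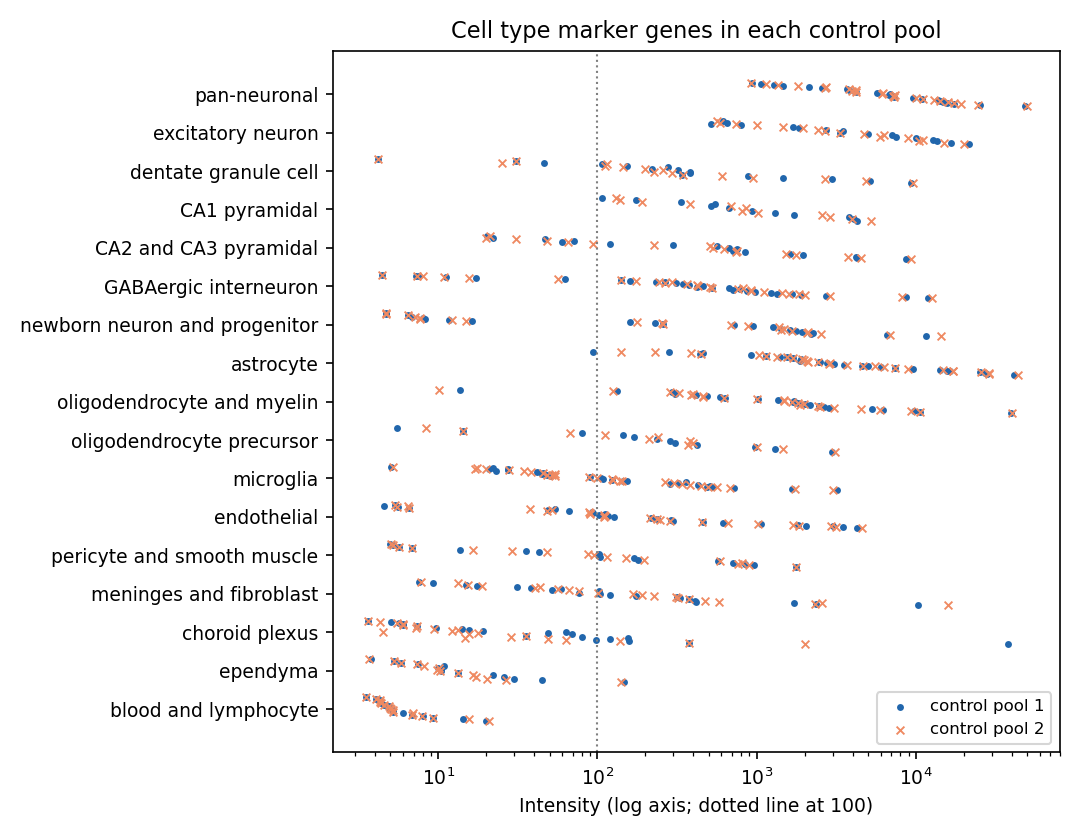
Intensity (log axis) of every named gene of 17 cell type lists in control pool 1 (blue circles) and control pool 2 (orange crosses), ordered by intensity within each list, with a dotted line at 100. Pan-neuronal and excitatory neuron genes all lie right of the line, blood genes all lie left of it, and the 2 marks of Ttr in the choroid plexus row are widely separated.

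Receptor genes as a class were included about as often as any gene. Of 211 named receptor genes 92 (43.6%) were included, near the 48.6% of all genes, but the families differed. All 10 AMPA and kainate receptor genes were included. The AMPA subunits, which carry fast excitation, read 12660 and 13002 for Gria2, 10623 and 9264 for Gria1, 6843 and 7632 for Gria3 and 730 and 929 for Gria4. Of 6 named NMDA receptor genes, of 7 written, 3 were included: Grin2b (1766 and 1369), Grin3a (396 and 447) and Grin2c (105 and 103). The other 3 named were under 100 on both arrays. Grin2a, a well-known subunit of adult hippocampal receptors, read 4.56 and 4.44. Of 6 metabotropic glutamate receptor genes 4 were included, led by Grm5 at 5187 and 5188.

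Inhibitory receptors were led by a few subunits. Of 16 GABA receptor genes 9 were included: Gabrb2 read 4395 and 4586, Gabrb1 4303 and 4243, Gabra2 3615 and 3358, Gabra5 3395 and 3131 and the metabotropic subunit Gabbr1 3081 and 3088. Gabrd, a subunit of receptors outside synapses, read 178 and 168. The rho, epsilon, theta and pi subunit genes, with Gabra6, were all near the lowest values, Gabrp being the highest of them at 5.25 and 5.27. Of 5 glycine receptor genes only the beta subunit Glrb, which anchors the receptor, was included, at 7279 and 7168. That count rested on pool 1: with pool 2 alone it was 3, since Glra2 (99.9 and 168) and Glra3 (82.7 and 129) passed there.

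These modulatory receptor lists had a lower share of genes included than the 48.6% of all genes. The shares were 38.5% for serotonin, 16.7% for dopamine and adrenergic and 16.7% for acetylcholine receptors. The list of adenosine, cannabinoid, opioid and histamine receptors had 27.3%. Of 13 serotonin receptor genes 5 were included, in descending order of signal Htr2c (1062 and 866), Htr4 (345 and 290), Htr1a (222 and 195), Htr1b (191 and 217) and Htr7 (117 and 101). The order of Htr1a and Htr1b was exchanged between pools. Htr5a (78.6 and 79.3) and Htr3a lay closest under the minimum and Htr2b, Htr3b and Htr6 at 4.13 or less. Of 6 named dopamine and adrenergic receptor genes, of 14 written, only Drd1 was included (126 and 160). The other written genes had no single-symbol probeset and were not assessed. With a minimum of 200 the count was 0. Of 18 acetylcholine receptor genes 3 were included, namely the nicotinic subunits Chrna7 (1010 and 805) and Chrnb2 (347 and 331) and the muscarinic receptor Chrm1 (624 and 630). The cannabinoid receptor Cnr1 read 8229 and 8512, among the highest receptor signals, and the nociceptin receptor Oprl1 read 580 and 630. The opioid receptor genes Oprm1 (5.59 and 5.64), Oprd1 (5.80 and 5.97) and Oprk1 (4.36 and 4.12) were under 100.

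Of 30 neuropeptide receptor genes 10 were included. The neurotensin receptor Ntsr2, also an astrocyte gene, read 1556 and 1546, the PACAP receptor Adcyap1r1 1085 and 1205, and the somatostatin receptor Sstr4 1131 and 1039. The neuropeptide Y receptors Npy2r (724 and 546), Npy5r (395 and 409) and Npy1r (246 and 252) were all included. Of 44 nuclear receptor genes 17 were included. Both corticosteroid receptors were present, the mineralocorticoid receptor Nr3c2 at 2722 and 2241 and the glucocorticoid receptor Nr3c1 at 1644 and 1631. Thra, a thyroid hormone receptor, read 3322 and 3261, while its relative Thrb read 4.01 and 3.99. The oestrogen receptors Esr1 and Esr2 (4.80 and 4.80) were under 100.

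Growth factor receptor genes lay near the background. Of 33 receptor tyrosine kinase genes 18 were included (54.5%, against 48.6% of all genes), with Ddr1 at 4243 and 4541, the BDNF receptor Ntrk2 at 3526 and 3589 and Ntrk3 at 1128 and 1051. Bdnf itself read 628 and 593. Ngfr (16.5 and 17.6) and Erbb2 (4.56 and 4.55) were under 100. Of 13 ephrin receptor genes 8 were included, led by Epha4 (4127 and 3346), Epha5 (1651 and 1580) and Epha7 (1640 and 1202).

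Ion channels set the excitability of the neurons. Of 25 voltage-gated sodium and calcium channel genes 19 were included, with Scn2a (10953 and 11728), Scn8a (5396 and 5139) and Scn1a (2029 and 1858) as the main brain sodium channels. The channels of sensory neurons and muscle, Scn10a (5.20 and 5.22), Scn11a (5.88 and 6.08) and Cacna1s (5.08 and 5.08), were under 100. Of 29 potassium and HCN channel genes 21 were included, led by Kcna1 (4570 and 3901), Kcnd2 (4260 and 3925) and Kcnq3 (3005 and 2714). Over the whole Kcn family, 38 of 84 genes were included.

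Neuropeptide and granin genes numbered 18 of 29. The processing and storage proteins came highest, with Scg5 at 16439 and 15090 and Chgb at 14107 and 13510 after Cpe. Grp read 1578 and 1855 and Penk 263 and 260, whereas Pdyn (12.4 and 13.4), a peptide gene known in dentate granule cells, and Pomc (15.9 and 10.7) were under 100. Immediate early genes, which respond to neuronal activity, numbered 19 of 25. Egr3 read 3046 and 3017, Egr1 2238 and 2563, Nr4a1 661 and 722, Arc 289 and 233 and Fos 268 and 230, while Fosb (3.98 and 4.31) and Egr2 (22.6 and 14.6) were under 100.

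Energy metabolism lists stood high in the ranking. Of 20 glycolysis genes 15 were included, with a median of 6925. The aldolases Aldoc (15645 and 17173) and Aldoa (16388 and 15502) came highest, followed by Tpi1 (14536 and 11835), Pgam1 (9849 and 10067) and the neuronal enolase Eno2 (9571 and 9957). Ldhb read 6967 and 6883 and Ldha 3118 and 3240. The included hexokinase was Hk1 (3013 and 3060), while Hk2 (68.5 and 63.1) and the liver pyruvate kinase Pklr (7.59 and 7.59) were under 100.

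By gene count, the citric acid cycle and respiratory chain lists were near complete, apart from the cytochrome c oxidase (Cox) symbol family. Of 27 pyruvate dehydrogenase and citric acid cycle genes 26 were included, led by the cytosolic Mdh1, its mitochondrial counterpart Mdh2 (19149 and 18966) and the citrate synthase gene Cs (8194 and 8001). The exception was Pdha2 (4.56 and 4.56), the testis form. Complex I genes numbered 33 of 34, complex III genes 12 of 12 and ATP synthase genes 17 of 17. Ndufb6 read 12461 and 12238, Uqcrc2 16472 and 16307 and Atp5b 20180 and 20765. Of 17 cytochrome c oxidase genes 9 were included, and those had a high median of 14773, with Cox6a1 at 26956 and 26627 and Cox5a at 19798 and 19520. The 9 summed to 127721 in pool 1, against 127930 for all 17. The other 8 were under 100 by the rule, so these sums had to be close. The complex I family held 1.41% of the summed intensity in pool 1 and 1.39% in pool 2, and ATP synthase 1.17% and 1.18%.

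Genes of transmitter metabolism and antioxidant defence were mostly included, while those of fuel transport were included about as often as all genes, 42.9% against 48.6%. Of 22 glutamine, glutamate and GABA genes 21 were included, with Slc1a5 (5.55 and 5.55) under 100. Got1 read 6548 and 6591, Glud1 3935 and 4058 and Abat, which breaks down GABA, 3137 and 3120. Of 14 glucose and lactate transport genes 6 were included, with the neuronal glucose transporter Slc2a3 at 2705 and 3118 and the monocarboxylate transporter Slc16a1 at 1190 and 1196, and the insulin-responsive Slc2a4 (9.28 and 9.28) under 100. Ckb, the brain creatine kinase, read 6250 and 6627, while the muscle forms Ckm (6.56 and 6.56) and Ckmt2 (5.14 and 5.17) did not pass. Of 20 antioxidant and iron genes 16 were included, with Gstp1 at 9781 and 9930 and Sod1 at 8999 and 9061.

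Lipid and liver-type pathways were split by isoform. Of 26 ketone body and fatty acid genes 19 were included, with the desaturase Scd2 at 20456 and 21203, Fabp5 at 9472 and 9929 and Oxct1, which lets neurons use ketone bodies, at 9024 and 9491. The adipose and liver forms Fabp4 (8.95 and 8.87) and Fabp1 (14.5 and 16.0) were under 100. Of 13 gluconeogenesis and glycogen genes 4 were included, with the brain glycogen phosphorylase Pygb at 1554 and 1633, and with G6pc (3.67 and 3.66) and Pck1 (8.77 and 8.83) under 100. Of 20 urea cycle and xenobiotic genes 4 were included, namely the sterol hydroxylases Cyp7b1 (1188 and 995) and Cyp46a1 (800 and 868), Cyp51 (469 and 470) and Asl (180 and 273). Cps1, which starts the urea cycle, read 3.84 and 3.82.

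**Figure D4:**
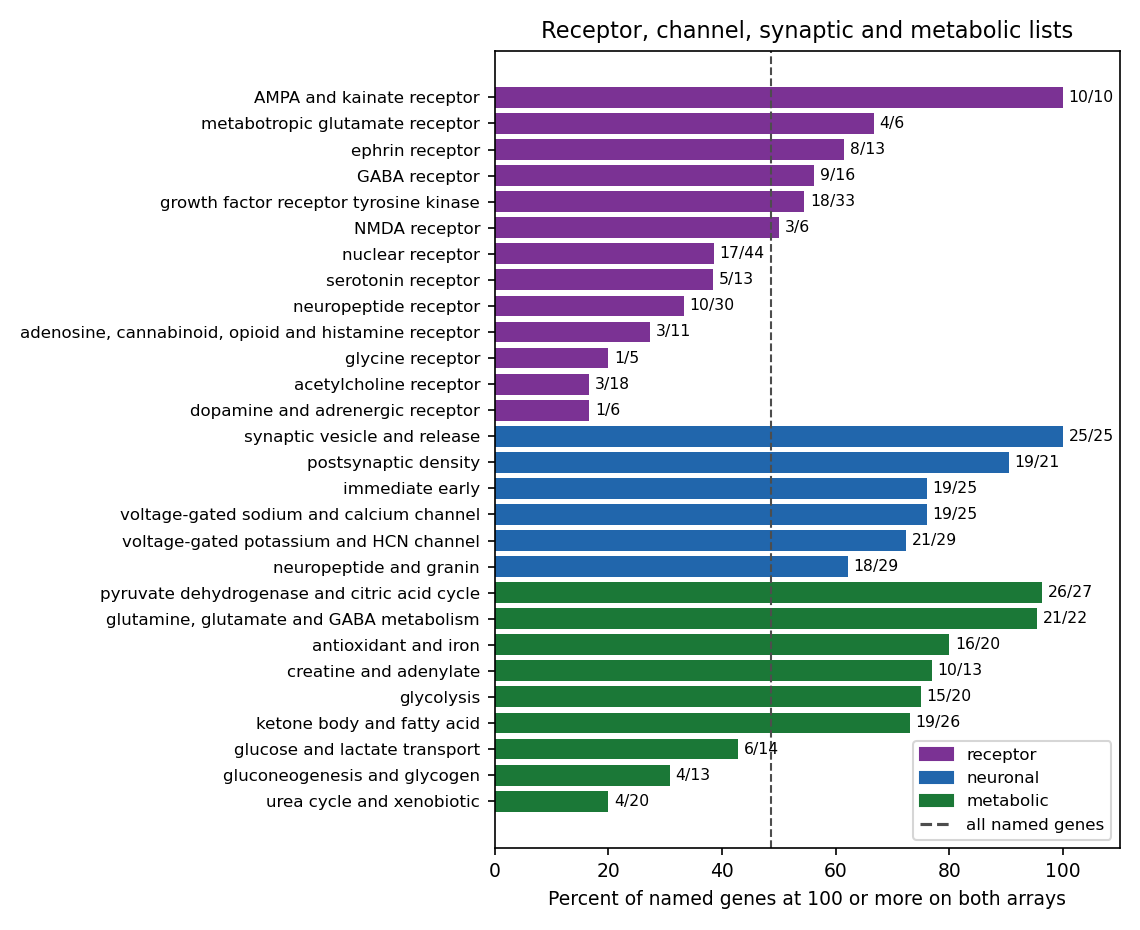
Percent of named genes at 100 or more on both control arrays (bars from 0, with the counts beside them) for receptor (purple), neuronal (blue) and metabolic (green) lists. The dashed line marks 48.6% for all genes, and the bars run from 1 of 6 dopamine and adrenergic receptor genes to all of the AMPA and kainate receptor and synaptic vesicle genes.

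By class, 221 of 276 neuronal, 73 of 92 glial, 34 of 63 vascular, 92 of 211 receptor, 121 of 175 metabolic and 30 of 157 other-tissue genes were included. The neuronal lists held 5.70% of the summed intensity in pool 1 and 5.71% in pool 2. The glial lists held 2.52% and 2.58%, the metabolic lists 3.62% and 3.67%, the receptor lists 1.10% in both pools and the vascular lists 0.299% and 0.347%. These shares follow the genes written in each list and the probes that measure them. They are not shares of cells.

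Whole gene families showed the same contrast between housekeeping and tissue-restricted genes. Cytosolic ribosomal protein genes numbered 43 of 49 with a median of 9409, and held 3.69% and 3.72% of the sum. Proteasome genes numbered 38 of 42, translation initiation factor genes 43 of 47, and all 6 Ywha genes were included with a median of 19391. None of 39 olfactory receptor, 33 Hox, 20 beta-defensin, 20 immunoglobulin segment, 11 toll-like receptor or 7 taste and trace amine receptor genes was included. Keratin genes numbered 3 of 86, cytochrome P450 genes 8 of 72, interleukin and receptor genes 6 of 73, collagen genes 9 of 42 and vomeronasal receptor genes 1 of 32. The larger mixed families lay near the 48.6% background, with 151 of 338 solute carrier genes and 179 of 336 Zfp zinc finger genes. Of 1855 clone or predicted gene names, 199 were included.

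The sex label was checked on single genes. The Y-linked genes Eif2s3y (1282 and 1319) and Kdm5d (242 and 235) were included, and Xist, the X-inactivation RNA of female cells, read 6.50 and 6.48. Of 6 named genes known to vary in DBA/2J mice, 2 were included and 4 were under 100. Glo1 read 7009 and 6547, while Gpnmb (4.86 and 4.87), which carries a stop codon in this strain, was under 100. With no other strain on the arrays, these values cannot check the strain label.

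Genes at the edge of the rule differed little from those just outside it. The 3 genes nearest above the minimum were Antxr1 (125 and 100.2), Gpc6 (108 and 100.3) and Fam184b (100.3 and 111). The 3 nearest below were Osbpl3 (100.3 and 99.97), Ier3 (112 and 99.9) and the glycine receptor gene Glra2 (99.9 and 168). Inclusion at this edge was decided by differences far smaller than the usual spread between pools.

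The largest difference between the pools was in Ttr, which read 37856 in pool 1 and 2002 in pool 2, a log2 difference of 4.24. It was the only included gene at least 2-fold higher in pool 1, and the background for that call was 0.0113% of the 8833 genes. The other 20 named choroid plexus genes, most of them under 100, summed to 1298 in pool 1 and 816 in pool 2. All 20 read higher in pool 1, 8 of them by at least 1.5-fold, although 10 were under 20 in both pools, where values near the floor have little order. Ecrg4 read 157 and 14.8, Kl 120 and 49.0, Kcnj13 80.4 and 28.7, Calml4 69.2 and 15.5, and Clic6 63.4 and 4.51. The defining markers Otx2 (5.65 and 5.55), Aqp1 (5.03 and 4.28) and Folr1 were low in both pools, and Igfbp2, also a meningeal gene, was even at 376 and 374. The part of choroid plexus tissue in the Ttr difference was not tested.

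In the opposite direction 2 genes (0.0226%) were at least 2-fold higher in pool 2. Klf5, a transcription factor, read 163 and 337, and Ccn2, a matricellular protein gene known in deep cortical layers, read 310 and 694. At 1.5-fold the counts were 24 genes (0.272%) higher in pool 1 and 27 (0.306%) higher in pool 2. In pool 1 the largest differences after Ttr were Lrrc10b (335 and 171), Lct (276 and 144), Epha6 (272 and 147), Rbfox2 (797 and 432) and Col11a1 (458 and 249). Strip2, Spink8, Phf12, Lamb2, Rem2 and Prox1 followed, with log2 differences from 0.84 for Strip2 to 0.74 for Prox1. In pool 2 they were, after Ccn2 and Klf5, Camk2d (214 and 401), Fhod3 (140 and 256), Zdhhc22 (124 and 222), Grik3 (563 and 1009) and Cckbr (148 and 264). Tmem164, Cbln4, Cobl, Ipcef1 and Fmod followed, with log2 differences from -0.80 for Tmem164 to -0.69 for Fmod.

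Several marker lists leaned to 1 pool. Over all included genes 55.5% were higher in pool 1, with a median log2 difference of 0.01. Of the 13 dentate granule cell genes included, 10 were higher in pool 1, with a median log2 difference of 0.31, and 3 of them passed 1.5-fold: Lct, Prox1 and Sema5a (1454 and 946). Excitatory neuron genes were higher in pool 1 in 13 of 17, with a median of 0.14. So were 8 of 11 CA2 and CA3 genes (median 0.16), 12 of 15 endothelial genes (0.06) and 17 of 23 oligodendrocyte genes (0.03). Neocortical genes were higher in pool 2 in 9 of 10, with a median of -0.21, and all 11 named summed to 6766 in pool 1 and 7836 in pool 2. Interneuron genes were higher in pool 2 in 17 of 22, with a median of -0.09. Pan-neuronal genes were higher there in 16 of 24 (median -0.05) and astrocyte genes in 18 of 28 (-0.02). Of the 11 meningeal genes 7 were higher in pool 2, and 3 of those passed 1.5-fold: Ptgds, Aldh1a2 (121 and 191) and Islr (104 and 166). The whole meningeal list summed to 17031 and 23920, and to 6747 and 7976 without Ptgds. The part of neighbouring tissue in these differences was not tested.

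**Figure D5:**
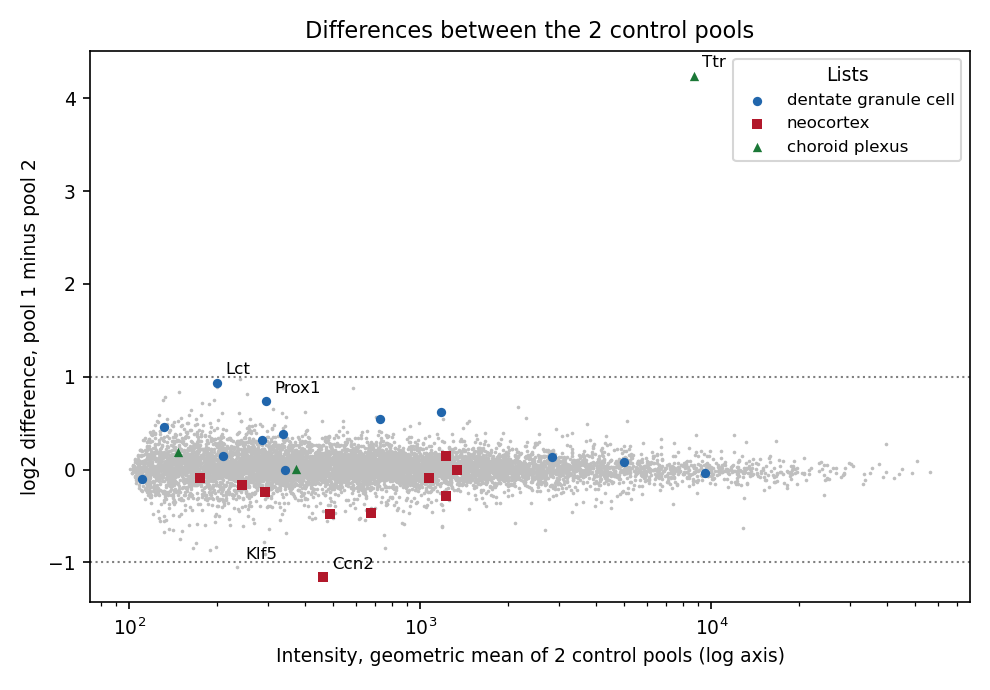
Log2 difference between control pools (pool 1 minus pool 2) against intensity (log axis, geometric mean of both pools) for the 8833 included genes (grey), with dentate granule cell (blue circles), neocortical (red squares) and choroid plexus (green triangles) genes marked and dotted lines at 2-fold. Ttr lies alone at 4.24, Ccn2 and Klf5 lie below the lower line, and most blue circles lie above 0 and most red squares below it.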

How the data were processed

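Hippocampal RNA was measured on 4 arrays, of which the 2 control arrays were used. The deposited table gives each probeset's intensity on a linear scale. Per the labels' design text, the authors used ArrayAssist software and GCRMA normalization, whose versions were not given in the sources used here. GCRMA corrects background by probe sequence and pulls dim probesets towards a common floor. Here log2 was taken with no pseudocount. No batch is given in the labels. The number of arrays limits the precision.

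Of 45101 probesets, 64 Affymetrix controls were left out. Of the other 45037, the platform annotation gives 34945 a single symbol, 932 several and 9160 none, and 34741 of the first were found by gene number in RefSeq's table. Means are geometric over the 2 pools. The table had 0 columns without a sample. Because GCRMA values carry no spot background, no fold against background is given.

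The genes and lists were chosen with earlier results of these data known. Of 1059 list genes written, 943 were named by the annotation, and the others were not analysed here. Named were the 30 highest genes, list members, the 3 highest of a family, the 12 largest differences between pools each way leaving out clone names, 3 genes on each side of the minimum, and the 5 widest probeset spreads among the 500 highest genes. No test was run. Scripts (python 3.11.15, pandas 2.3.3, numpy 2.4.6, matplotlib 3.10.9) were tested on simulated data. Alternatives were minimums of 50 and 200, 100 on either array, quantile normalization, median centring, the median probeset per gene, leaving out _s_at and _x_at probesets (which can match several transcripts), other folds, and each array alone.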

Additional observations from a re-analysis of the deposited data

How the results depend on the processing

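The number of included genes, 8833, became 9893 with a minimum of 50, 7306 with 200, 9072 with 100 on either array, 8454 without _s_at and _x_at probesets, and 8941 to 8964 with 1 array alone. Quantile normalization and median centring gave 8835 and 8838. Class counts of included genes stayed within 1.5 times of the main count under every alternative run for them. Taking the median probeset of each gene kept 62 of the 100 highest genes, against 72 without _s_at and _x_at probesets and 97 to 98 with 1 array alone. It also moved the share of summed intensity by more than the spread between pools, to 5.75% for neuronal, 2.78% for glial, 0.391% for vascular, 0.929% for receptor and 3.82% for metabolic lists, and to 4.51% for ribosomal protein, 1.97% for complex I and 1.71% for ATP synthase genes; the cause was not tested. The share of other-tissue lists was 0.166% without pool 1 and 0.424% without pool 2, with Ttr the gene that differed most. Counts between pools at other folds were 51 genes at 1.5-fold and 1 gene, Ttr, at 3-fold. The CpG-rich share of genes not at the minimum was 33.2%, and became 29.4% with a minimum of 50 and 38.7% with 200, the latter moving brighter genes into that group. In checks chosen after seeing the data, the CpG-rich share of included genes was 79.2% when genes with several start regions were counted too, and 9 of 10 neocortical genes were higher in pool 2 under quantile normalization and under median centring. Of 54 list counts, 49 were within 1.5 times with a minimum of 50 and 48 with 200. With pool 2 alone the glycine receptor count went from 1 to 3 and the hypothalamic count from 0 to 1, with pool 1 alone the choroid plexus count went from 3 to 5, and without _s_at and _x_at probesets the ependymal count went from 1 to 0. No paired analysis was possible because the control arrays were described alone, with no test. Pools of mice, 1 array each and GCRMA's floor limit what dim genes can show.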
